A study of Mus musculus with 4 samples.

Results

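The gp130 axis is the signalling chain that carries LIF, oncostatin M and the IL-6 family of cytokines to the transcription factor STAT3. It was followed here through 10 genes, chosen by symbol for their role in the chain: the receptor genes *Lifr*, *Il6st*, *Osmr* and *Il6ra*, the kinase genes *Jak1* and *Jak2*, *Stat3*, and its targets and regulators *Socs3*, *Pim1* and *Ptpn6*. All 10 were found among the 39179 genes listed for each library, and all 10 were among the 11483 genes tested. RNA-seq counts were available from B16F1, a mouse melanoma cell line, with 2 libraries of parental control cells and 2 of tumor-repopulating cells (TRCs). TRCs are the cells that formed spheroids from single B16F1 cells in soft 3D fibrin gels of 90 Pa stiffness and were taken out on day 5. The parental cells were the same line in ordinary culture on rigid dishes. No other genotype, drug or cytokine is named for either group, so gel, spheroid growth and selection differed together and cannot be told apart. Both groups carry the replicate numbers 1 and 3.

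In this pathway a cytokine first binds a ligand-specific receptor chain and then gp130, the shared chain encoded by *Il6st*. JAK kinases bound to the receptor tails phosphorylate them, STAT3 docks there, is phosphorylated, and moves to the nucleus. SOCS3 and the tyrosine phosphatase SHP-1 switch the signal off, and *Socs3* is itself a STAT3 target, which closes a feedback loop. In mouse embryonic stem cells LIF acting through this chain sustains self-renewal, and in melanoma STAT3 is among the best known factors of growth and survival.

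The libraries held 35948295 to 43511554 counts on genes, so that 3 counts, taken as the detection floor, corresponded to 0.0689 to 0.0835 CPM (a gene's counts scaled to the size of its library), a floor that covers counting error only. CPM values were scaled by TMM factors of 0.957 to 1.04. All 7 melanocyte-lineage markers were tested, and their summed level was 15696 to 18892 CPM in parental cells and 23939 to 26641 CPM in TRCs. Of 12 leukocyte markers 5 had no count in any library, *Ptprc* (CD45) among them, and their summed level was 3.48 to 6.96 CPM in parental cells and 3.46 to 3.84 CPM in TRCs. The fibroblast markers summed to 10.1 to 12.1 CPM and 3.22 to 5.67 CPM and the endothelial markers to 0.566 to 1.53 CPM and 0.673 to 2.50 CPM in the same order. Among all these markers *Dct*, a pigment enzyme, was called higher in TRCs (log2 fold change 1.08) and *Col1a2*, a collagen chain, lower (−2.52). These are bulk samples, in which fewer expressing cells and less RNA per cell cannot be told apart.

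The promoters of the 3 genes that were called higher in TRCs, and of *Socs3*, are shown because STAT factors bind a palindrome that can be read from their letters. Each window holds the 250 bases before a transcript start in RefSeq (GRCm38.p6, written in the direction of the gene). The windows lie at chr15:7129322-7129571 on the plus strand for *Lifr*, and on the minus strand at chr11:100939541-100939790 for *Stat3*, chr6:124738710-124738959 for *Ptpn6* and chr11:117969367-117969616 for *Socs3*. For *Lifr* and *Socs3* the whole window lies inside the gene span given below, so it is not sequence upstream of the whole gene. Capitals mark the palindrome TTCNNNGAA, which reads the same on both strands.
Lifr: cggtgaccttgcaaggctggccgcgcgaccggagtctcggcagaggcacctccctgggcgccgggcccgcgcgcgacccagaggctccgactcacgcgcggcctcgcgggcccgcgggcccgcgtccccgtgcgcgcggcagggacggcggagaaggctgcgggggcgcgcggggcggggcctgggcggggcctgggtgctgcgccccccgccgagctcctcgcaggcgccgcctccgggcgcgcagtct
Stat3: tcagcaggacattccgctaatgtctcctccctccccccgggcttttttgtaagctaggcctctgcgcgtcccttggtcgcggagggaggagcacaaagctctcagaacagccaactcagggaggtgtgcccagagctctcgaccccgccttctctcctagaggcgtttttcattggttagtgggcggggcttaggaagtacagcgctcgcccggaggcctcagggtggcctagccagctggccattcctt
Ptpn6: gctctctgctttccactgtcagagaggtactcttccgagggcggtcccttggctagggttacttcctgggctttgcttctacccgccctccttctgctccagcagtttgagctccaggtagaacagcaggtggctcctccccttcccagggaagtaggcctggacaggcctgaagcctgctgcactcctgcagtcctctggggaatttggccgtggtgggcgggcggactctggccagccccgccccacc
Socs3: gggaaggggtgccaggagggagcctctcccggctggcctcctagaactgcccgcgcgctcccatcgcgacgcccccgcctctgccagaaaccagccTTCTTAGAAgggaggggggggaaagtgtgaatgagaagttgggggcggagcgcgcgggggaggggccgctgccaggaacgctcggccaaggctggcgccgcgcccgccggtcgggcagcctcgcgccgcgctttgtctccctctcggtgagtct
The *Socs3* window held 1 match, TTCTTAGAA, which begins 154 bases before the RefSeq start of that window. The match thus lies inside the annotated *Socs3* span. No match was found in the other 3 windows shown, in a second window of *Lifr*, or in the windows of the other 6 genes, of which *Pim1* has 2. Over all 32841 promoter windows of this length, 7.02% held TTCNNNGAA. The form with 4 bases between TTC and GAA was found in none of the members' windows and in 5.85% of all. A match of letters is a description and not a bound site, and sites outside these windows were not searched.

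Between the groups, 3 of the 10 genes were called higher in TRCs at an FDR under 0.05 (edgeR's exact test with Benjamini-Hochberg adjustment over all 11483 genes) and 0 lower in that test, at an unadjusted p under 0.05 or by the other tools, against 8.81% of all genes tested called higher and 7.05% called lower. *Lifr*, *Stat3* and *Ptpn6* were higher, and *Il6st*, *Osmr*, *Il6ra*, *Jak1*, *Jak2*, *Socs3* and *Pim1* were not called. At an unadjusted p under 0.05, 4 genes were higher, *Socs3* being the one added. In 4 genes both TRC libraries lay above both parental libraries, which was so for 30.2% of all genes tested, and in 1 both lay below, which was so for 30.4%. Over the 10 genes the log2 fold change had a median of 0.45, beside 0.0034 over all genes tested. This median was not shared along the chain and leaned on TRC replicate 1. The 4 receptor genes had a median of 0.36 and the 2 kinase genes 0.15, and without that library −0.43 and −0.07. *Stat3* was then at 0.84, and the 3 targets and regulators had a median of 0.66. With 2 libraries against 2, an exact permutation test of a single gene cannot go below p = 0.333, so the p-values rest on the spread modelled across genes. Nothing in the sources says that the libraries of a group came from separate cultures, so that spread may be technical.

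**Figure D1:**
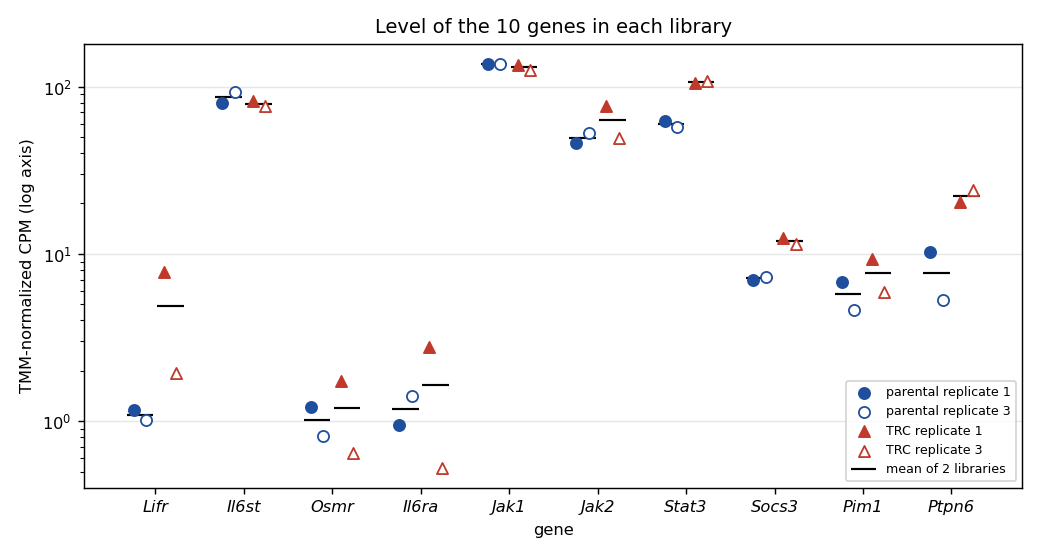
TMM-normalized CPM on a log axis for the 10 genes, with 1 point per library (circles parental, triangles TRC, filled replicate 1, open replicate 3) and a line at the mean of the 2 libraries. The TRC triangles stand clear above the parental circles for Lifr, Stat3, Socs3 and Ptpn6, while for Lifr, Osmr, Il6ra, Jak2 and Pim1 the TRC replicates stand apart from each other.

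*Lifr* (ENSMUSG00000054263, plus strand of chromosome 15 from 7090614 to 7197489 in GRCm38) encodes the receptor chain that binds LIF and pairs with gp130. Its parental counts were 52 in replicate 1 and 36 in replicate 3, against 326 and 81 in the TRCs. Scaled, the parental levels were 1.17 and 1.02 CPM and the TRC levels 7.83 and 1.94 CPM. The groups did not overlap, but TRC replicate 3 lay far closer to the parental libraries than to TRC replicate 1. The parental mean was 1.09 ± 0.105 CPM (SD, n = 2) and the TRC mean 4.89 ± 4.16 CPM (SD, n = 2), so *Lifr* rose 4.46-fold (log2 fold change 2.16, SE 0.68 from DESeq2, exact test FDR = 0.00765). The counting intervals of the TRC libraries, 7.01 to 8.73 CPM and 1.54 to 2.42 CPM (exact Poisson, 95%), did not meet, and only 0.374% of all genes tested differed as much between them. Without TRC replicate 1 the fold change was 1.75 and the FDR 0.533. It was not called either without parental replicate 3 (FDR = 0.116), in edgeR's quasi-likelihood test (FDR = 0.0752) or with a replicate block (FDR = 0.0902).

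*Il6st* (ENSMUSG00000021756, plus strand of chromosome 13 from 112464070 to 112510086) encodes gp130, the chain shared by the receptors for LIF, oncostatin M and IL-6. Its level was 79.7 and 93.0 CPM in parental cells (replicate 1, then 3) against 81.6 and 76.6 CPM in TRCs. The groups overlapped. The log2 fold change was −0.13 with a 95% interval of −0.53 to 0.28 from DESeq2 (exact test FDR = 0.77), so a change in the mean as large as that of *Lifr* lies outside the interval.

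*Osmr* and *Il6ra* were near the detection filter. *Osmr* (ENSMUSG00000022146, minus strand of chromosome 15 from 6813577 to 6874969), the oncostatin M receptor chain, had 54 and 29 counts in parental cells, where replicate 1 always comes first, and 73 and 27 in TRCs. *Il6ra* (ENSMUSG00000027947, minus strand of chromosome 3 from 89864059 to 89913196), the chain that binds IL-6, had 42 and 50 counts in parental cells and 115 and 22 in TRCs. In both genes TRC replicate 1 was the highest and TRC replicate 3 the lowest of the 4 libraries, so the parental values lay between the TRC values. The log2 fold changes were 0.23 for *Osmr* (95% interval −1.37 to 1.85) and 0.48 for *Il6ra* (−1.23 to 2.19). Without TRC replicate 1 they were −0.67 and −1.16, so not even their direction is settled by these libraries. Each passed the filter on low counts in 2 libraries only.

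Put on a per-length scale, the receptor chains differed widely in level. Per kilobase of exon (RPKM), *Il6st* averaged 7.78 in parental cells and 7.13 in TRCs, whereas *Lifr* averaged 0.101 and 0.454. Relative to *Il6st* in the same library, *Lifr* stood at 1.51% and 1.13% in parental cells against 9.88% and 2.61% in TRCs. *Osmr* ranged from 0.775% to 1.97% of *Il6st* and *Il6ra* from 0.885% to 4.35%. In every library, then, the transcript of the shared chain was far more abundant than those of *Lifr*, *Osmr* and *Il6ra*. *Cntfr*, which encodes the CNTF-binding chain of the family and is anchored in the membrane by a lipid, was the exception, at 325% to 611% of *Il6st*.

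Of the kinases, *Jak1* was level and *Jak2* was uneven. *Jak1* (ENSMUSG00000028530, minus strand of chromosome 4 from 101152367 to 101265282), the kinase most needed for gp130 signalling, had 6043 and 4793 counts in parental cells and 5605 and 5227 in TRCs. The level was 136 CPM in both parental libraries, and the TRCs had 135 and 125 CPM. Both TRC libraries lay below both parental libraries, but by little: the log2 fold change was −0.061 (95% interval −0.43 to 0.31, FDR = 0.896).

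*Jak2* (ENSMUSG00000024789, plus strand of chromosome 19 from 29251828 to 29313080), which also serves the growth hormone and erythropoietin receptors, had 45.9 and 52.4 CPM in parental replicates 1 and 3. In TRCs it had 76.7 CPM in replicate 1 and 49.3 CPM in replicate 3, so replicate 3 fell between the parental libraries. The log2 fold change of 0.36 (SE 0.27, 95% interval −0.17 to 0.89) was not called by the exact test (FDR = 0.379), nor in any alternative, where the FDR ranged from 0.193 to 1. Without TRC replicate 1 it was −0.011. Per length, *Jak2* stood at 48.6% and 55.5% of *Jak1* in parental cells and at 81.8% and 56.5% in TRC replicates 1 and 3.

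*Stat3* (ENSMUSG00000004040, minus strand of chromosome 11 from 100885098 to 100939540), the transcription factor at the end of the chain, was the most even of the genes called. Its counts were 2772 and 2016 in parental cells against 4386 and 4507 in TRCs, or 62.3 and 57.1 CPM against 105 and 108 CPM. The parental mean was 59.7 ± 3.68 CPM (SD, n = 2) and the TRC mean 107 ± 2.0 CPM (SD, n = 2), so *Stat3* rose 1.79-fold (log2 fold change 0.84, SE 0.20, exact test FDR = 0.00261). Each TRC library exceeded each parental library by 0.75 to 0.92 in log2(CPM + 0.5). It was called in all 7 other tests, filters and normalizations tried on the 4 libraries, the replicate block included. With 3 libraries the log2 fold change stayed between 0.78 and 0.90, and the FDR was 0.0522 without parental replicate 3 and 0.0584 without TRC replicate 3. Its annotated exons share 72 bases with *Stat5a* on the opposite strand, and *Stat5a* was not called (log2 fold change 0.29, FDR = 0.505). Per length, *Stat3* stood below *Il6st* in both parental libraries, at 91.0% and 71.5% of it, and above it in both TRC libraries, at 150% and 164%. Which gene stands above the other rests on the merged exon lengths used, 9527 bases for *Stat3* and 11099 for *Il6st*.

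*Ptpn6* (ENSMUSG00000004266, minus strand of chromosome 6 from 124720707 to 124738714) encodes SHP-1, a tyrosine phosphatase that dephosphorylates JAKs and is best known from blood cells. Its counts were 452 and 186 in parental cells against 848 and 1003 in TRCs. At 10.2 and 5.27 CPM the parental libraries differed more from each other than the TRC libraries did, at 20.4 and 24.1 CPM, and the groups did not overlap. The parental mean was 7.71 ± 3.46 CPM (SD, n = 2) and the TRC mean 22.2 ± 2.62 CPM (SD, n = 2), so *Ptpn6* rose 2.88-fold (log2 fold change 1.52, SE 0.36, exact test FDR = 0.0015). It was called in 6 of 7 other tests and settings, and not with the replicate block (FDR = 0.0529). The FDR was 0.0507 without parental replicate 3 and 0.0719 without TRC replicate 3, with fold changes of 2.19 and 2.62. *Cd68* was the only leukocyte marker that reached the genes tested, and it was not called (log2 fold change −0.78, FDR = 0.344). Which cells the *Ptpn6* transcripts came from was not tested.

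*Socs3* (ENSMUSG00000053113, minus strand of chromosome 11 from 117966079 to 117970047) encodes the inhibitor that binds gp130 and JAK and is the classical early target of STAT3. Its level was 6.99 and 7.28 CPM in parental cells against 12.4 and 11.4 CPM in TRCs, from 257 to 515 counts. The groups did not overlap and the libraries within each lay close together. The log2 fold change was 0.73 (SE 0.30, 95% interval 0.15 to 1.32, unadjusted), yet the gene was not called after adjustment (exact test FDR = 0.168, and 0.07 in DESeq2's Wald test). Per length, *Socs3* stood at 37.0% and 42.0% of *Stat3* in parental cells and at 38.7% and 34.6% in TRCs.

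*Pim1* (ENSMUSG00000024014, plus strand of chromosome 17 from 29490753 to 29496112), a survival kinase and STAT3 target, had 6.81 and 4.64 CPM in parental replicates 1 and 3. In TRC replicates 1 and 3 it had 9.37 and 5.93 CPM, so the groups overlapped. The log2 fold change of 0.42 (95% interval −0.38 to 1.22) was not called (FDR = 0.577).

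**Figure D2:**
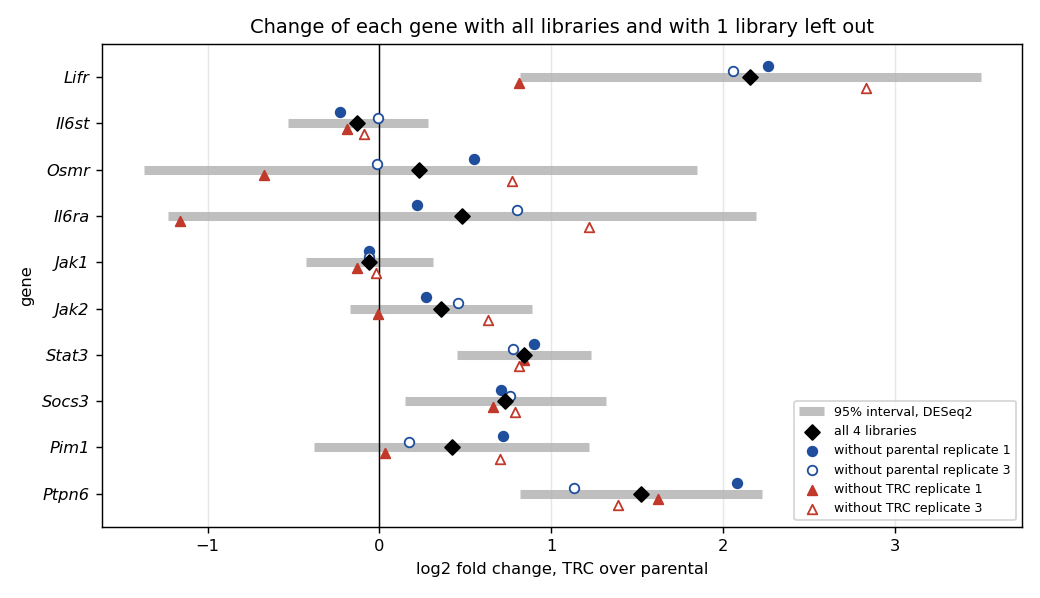
Log2 fold change of TRC over parental for the 10 genes (diamonds, all 4 libraries, with the 95% interval from DESeq2 as a grey bar) and the value with each library left out (circles and triangles). Stat3 and Socs3 keep their place whichever library is absent, Lifr falls from 2.16 to 0.81 without TRC replicate 1, and Osmr, Il6ra and Jak2 fall below 0 without it.

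The spread between the TRC libraries was not the same in all 10 genes. TRC replicate 1 was higher than TRC replicate 3 in 8 of the 10 genes, and in 5730 of the 11483 genes tested. All 4 receptor genes and both kinase genes were among the 8. For *Il6st*, *Jak1* and *Socs3*, however, the difference was small, at 0.091, 0.10 and 0.12 in log2(CPM + 0.5). At least as large a difference was seen in 76.7%, 74.2% and 69.9% of all genes tested. The difference, on the scale of log2(CPM + 0.5), was 1.77 for *Lifr*, 1.67 for *Il6ra*, 0.97 for *Osmr*, 0.63 for *Jak2* and 0.62 for *Pim1*. Of all genes tested, 0.488% differed between the TRC libraries by at least as much as *Il6ra*, 3.46% as *Osmr*, 9.74% as *Jak2* and 10.3% as *Pim1*. *Stat3* and *Ptpn6* were the exceptions in direction, at −0.038 and −0.24. Between the parental libraries the largest difference was that of *Ptpn6*, 0.89 higher in replicate 1, which 5.29% of all genes tested reached. TRC replicate 3 also had the largest share of alignments that were not unique, 25.2% against 15.2% to 18.3% in the other libraries. The part of these library differences in the results was not tested.

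**Figure D3:**
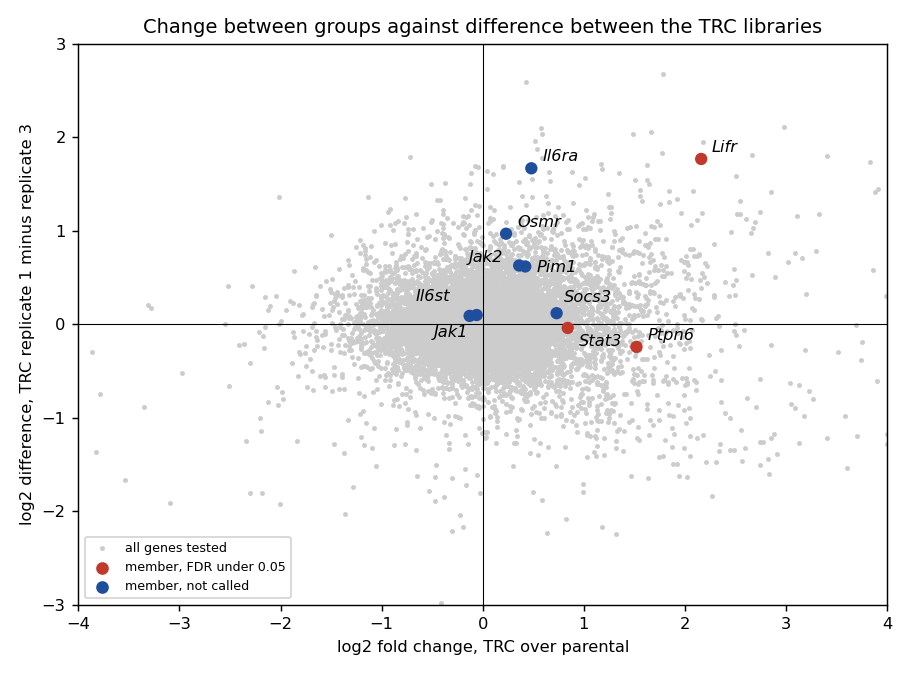
Each gene's log2 fold change between groups (x axis) against its log2 difference between TRC replicates 1 and 3 (y axis, CPM + 0.5), with all genes tested in grey and the 10 members coloured by call. Stat3, Socs3 and Ptpn6 sit near the zero line of library difference, while Lifr and Il6ra sit at 1.77 and 1.67. Axes end at 4 and 3, and 27 genes beyond them are not drawn.

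By level per length the parental order was *Jak1* (18.8 RPKM), *Jak2* (9.78), *Il6st* (7.78), *Stat3* (6.26), *Ptpn6* (2.75), *Socs3* (2.47) and *Pim1* (1.70). *Il6ra*, *Lifr* and *Osmr* followed between 0.136 and 0.084 RPKM. The values of *Ptpn6*, 1.88 to 3.62 RPKM, took in those of *Socs3* and met those of *Pim1*, and *Lifr* and *Osmr* overlapped, so their order is not resolved. In TRCs *Stat3* averaged 11.2 RPKM and fell within the range of *Jak2*, 9.81 to 15.2 RPKM. *Ptpn6*, at 7.27 to 8.59 RPKM in TRCs, had come to the level of *Il6st*, at 6.90 to 7.36 RPKM. These orders between genes also rest on the merged exon lengths.

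Among the rest of the pathway, taken from lists written for this purpose, 51 of 73 genes that are not members were tested, and 6 were called higher and 3 lower in TRCs, near the shares over all genes tested (8.81% higher and 7.05% lower). Their median log2 fold change was 0.27, and 0.017 with no filter on low counts. Of these 73 genes, 8 had no count in any library.

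The cytokines described here were nearly silent. *Osm*, *Clcf1* and *Il27* had no count in any library. *Lif*, the ligand of the LIF receptor, had 41 and 36 counts in parental cells and 13 and 29 in TRCs, or 0.921, 1.02, 0.312 and 0.696 CPM, and failed the filter. *Il6* had 1 count in 1 library, *Ebi3* likewise, and *Il11*, *Cntf* and *Ctf1* had 0 to 10 counts per library.

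Of the other receptor chains 2 were tested and 0 called by edgeR's exact test, with 1, *Cntfr*, at an unadjusted p under 0.05 and called by DESeq2's Wald test. *Cntfr* stood at 84.4 and 75.8 CPM in parental cells against 118 and 117 CPM in TRCs. The groups did not overlap, with a log2 fold change of 0.55 (95% interval 0.17 to 0.94, unadjusted) and an exact test FDR of 0.0689. *Il11ra1*, the IL-11 receptor chain, which has near-identical copies in the mouse genome and is uncertain for that reason, had a log2 fold change of −0.048 (FDR = 0.948). *Csf3r* had no count, and *Lepr* and *Il27ra* had 0 to 2 counts per library.

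Of the other STAT genes *Stat2* was called, and *Stat5a*, *Stat5b* and *Stat6* had higher values in both TRC libraries than in both parental libraries without passing the test. *Stat2*, a factor of the interferon response, had 15.3 and 9.20 CPM in parental cells and 30.5 and 22.2 CPM in TRCs, and rose 2.15-fold (log2 fold change 1.10, SE 0.33, exact test FDR = 0.0157). *Stat2* was called in 6 of 7 other tests and settings. The quasi-likelihood test called it with the replicate block (FDR = 0.0461) and not without (FDR = 0.0626). Its log2 fold change was 0.78 without parental replicate 3 and 0.84 without TRC replicate 1, and it was not called in either fit. *Stat5b* had a log2 fold change of 0.47 (FDR = 0.178) and *Stat6* one of 0.27 (FDR = 0.462). *Jak3* and *Tyk2*, the remaining JAK kinases, had log2 fold changes of 1.26 (FDR = 0.0584) and 0.43 (FDR = 0.241). With at least 1 CPM required in at least 3 libraries, 1 of these 2 genes was called higher.

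Of 13 further negative regulators tested, among them other SOCS genes, the PIAS genes and the phosphatase genes *Ptpn1*, *Ptpn2* and *Ptpn11*, 0 were called, and 2 had an unadjusted p under 0.05. DESeq2's Wald test called 1 of them, lower in TRCs. Their median log2 fold change was −0.047. Of all genes tested, the exact test called 8.81% higher and 7.05% lower. *Cish*, a STAT5 target, had a log2 fold change of 0.93 (FDR = 0.151) and *Ptpn11*, which encodes SHP-2, one of −0.53 (FDR = 0.0902).

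Of 25 other known STAT3 target genes, 19 were tested, 3 were called higher and 2 lower, beside 8.81% and 7.05% of all genes tested, and the median log2 fold change was −0.007. The quasi-likelihood test called 3 higher and 0 lower, with or without the replicate block. DESeq2's Wald test called 3 higher and 3 lower. *Fos*, an immediate-early transcription factor that many pathways induce, had 1.15 and 1.61 CPM in parental cells and 10.4 and 7.06 CPM in TRCs, and rose 6.33-fold (log2 fold change 2.66, SE 0.44, exact test FDR = 1.4e-06). *Pim2*, a kinase related to *Pim1*, rose from 9.64 and 13.1 CPM to 20.6 and 42.4 CPM (log2 fold change 1.47, FDR = 0.00172), and without TRC replicate 3 its FDR was 0.263 and its log2 fold change 0.85. *Nfkbiz*, a nuclear regulator of NF-κB, rose from 4.49 and 5.61 CPM to 13.4 and 14.0 CPM (log2 fold change 1.44, FDR = 0.00244), with an FDR of 0.0553 without TRC replicate 1 and 0.0679 without TRC replicate 3. *Cebpb*, a transcription factor of the acute-phase response, had a log2 fold change of −1.68 (FDR = 0.029), but its parental libraries held 18.2 and 4.95 CPM and its TRC libraries 2.62 and 4.59 CPM. Without parental replicate 1 its log2 fold change was −0.46 (FDR = 0.602). *Birc5*, which encodes the mitotic survival protein survivin, had a log2 fold change of −0.69 (FDR = 0.0357), and −0.47 without parental replicate 3 (FDR = 0.341). Neither *Cebpb* nor *Birc5* was called by the quasi-likelihood test (FDR = 0.109 and 0.072), or without TRC replicate 1 (FDR = 0.335 and 0.334) or TRC replicate 3 (FDR = 0.0874 and 0.0992). *Myc* (−0.46), *Mcl1* (−0.49), *Bcl2l1* (−0.034) and *Ccnd1* (−0.13) were not called on this log2 scale.

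Among 9 adaptor, scaffold and shedding genes tested, 1 was called higher and 1 lower, beside 8.81% and 7.05% of all genes tested. *Src*, the gene of a kinase that can phosphorylate STAT3, had a log2 fold change of 0.60 (FDR = 0.0494) and was called in 3 of 7 other settings and in 0 of 4 fits that left out a library, where its FDR reached 0.31. *Sos1*, which links receptors to RAS, had a log2 fold change of −0.79 (FDR = 0.0111), and −0.54 without parental replicate 3 (FDR = 0.211), and it was not called without TRC replicate 1 (FDR = 0.103) or TRC replicate 3 (FDR = 0.169). *Adam10* and *Adam17*, the sheddases of the family's receptors, had log2 fold changes of 0.37 (FDR = 0.323) and 0.28 (FDR = 0.446).

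**Figure D4:**
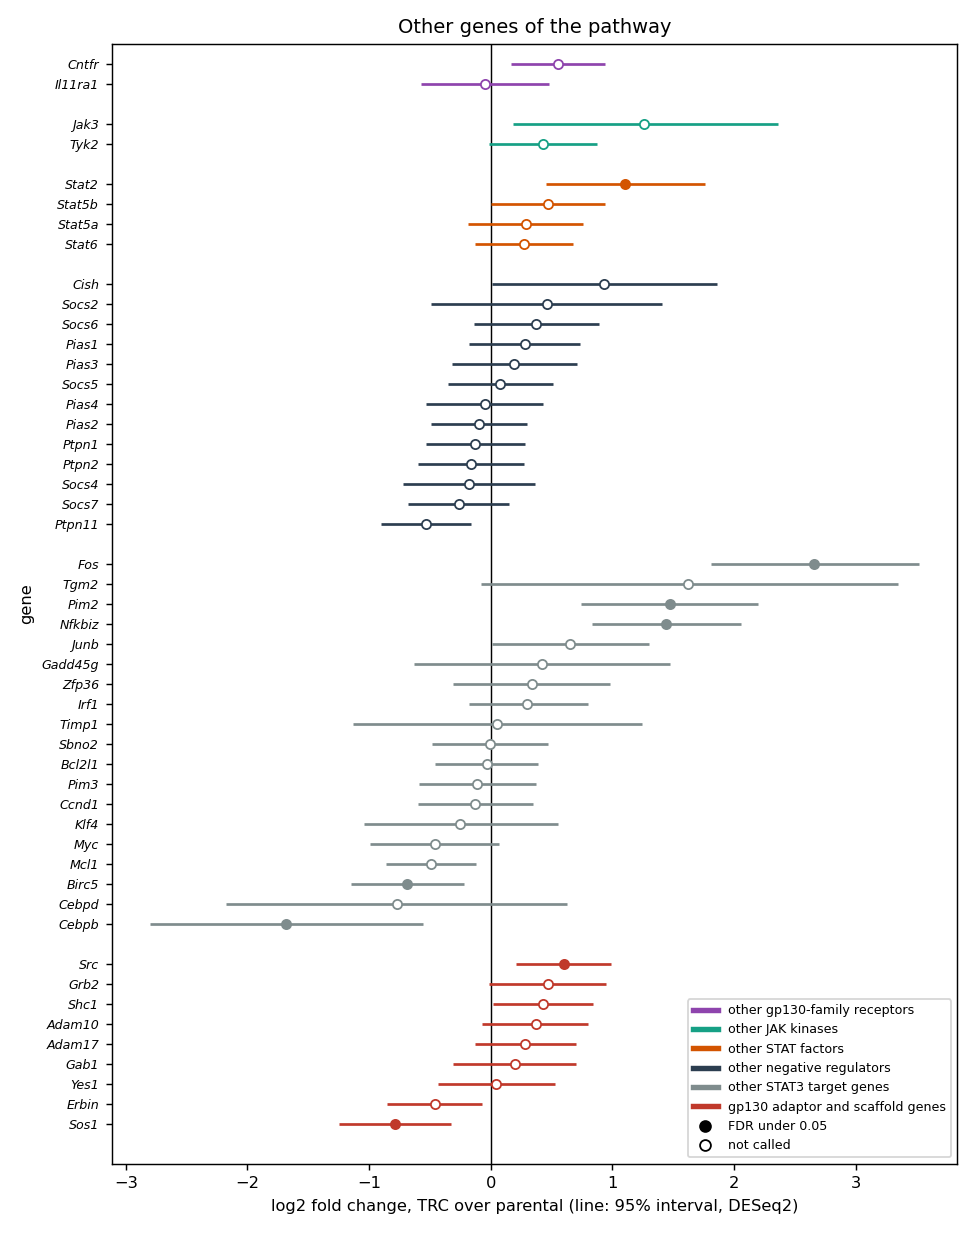
Log2 fold change of TRC over parental (points, filled where FDR is under 0.05) with 95% intervals from DESeq2 (lines) for tested pathway genes that are not members, grouped by role. Stat2, Fos, Pim2, Nfkbiz and Src are filled to the right of 0, and Birc5, Cebpb and Sos1 to the left.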

How the data were processed

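RNA was sequenced from 2 parental and 2 TRC libraries, grouped by their labels. The deposited values were raw counts per Ensembl gene, 1 table per library, which the authors made with HTSeq from TopHat2 alignments to the mouse genome build GRCm38. The submitters' processing notes name Trimmomatic 0.35, TopHat2 2.1.0, Bowtie2 2.2.6 and SAMtools 1.3. Whether HTSeq used strand is not given in the sources used here, so reads shared with genes on the opposite strand cannot be assigned. Rows that name no gene (unassigned reads) were left out of library sizes. Alignments that were not unique came to 15.2% to 25.2%, those on no gene to 2.95% to 4.25% and ambiguous ones to 0.825% to 0.955%. These are shares of the counts on genes and these classes together, without unaligned reads.

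Genes with at least 1 CPM in at least 2 libraries were kept, 11483 of 39179. Symbols were found for 37607 identifiers. TRC and parental libraries were compared with edgeR 4.0.16 (TMM, common and tagwise dispersion, exact test), with p-values adjusted by the Benjamini-Hochberg method across every gene kept and called at an FDR under 0.05. The study used the same test and removed genes under 1 CPM in at least 3 samples. Taken by that wording, with 4 libraries, this is the filter used here. A stricter reading, at least 1 CPM in at least 3 libraries, was tried as an alternative. Standard errors and 95% intervals came from DESeq2 1.42.0. RPKM used merged exon lengths from GENCODE, which join all annotated exons of a gene and may differ from the transcripts present. All 10 members were named, with the ligands, the called genes of the other lists and the 2 tested genes nearest in pattern to *Lifr*, *Jak2* and *Stat3*. Some pathway genes are not reported here, though counts and medians over the lists include them. Further uncalled pathway genes were named for their role after their values were seen. The members and lists were chosen with earlier results of these data known. Alternatives were other filters and normalizations, edgeR's quasi-likelihood test with and without a replicate block, DESeq2's Wald test and leaving out each library. The numbers 1 and 3 were not taken to pair samples, since the deviations of parental and TRC libraries of one number had a correlation of r = 0.0267 across genes. This correlation does not exclude that libraries of one number shared a batch. The tests were tested on simulated data. Counting intervals cover counting error only.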

Additional observations from a re-analysis of the deposited data

How the results depend on the processing

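Of 108 values recomputed with a test for the 10 members, 95 kept their direction and side of the threshold, 9 kept the direction but were no longer called, and 4 changed sign. The changes of sign came from leaving out a library. Across those 4 fits *Osmr* took log2 fold changes of −0.67 to 0.77, *Il6ra* of −1.16 to 1.22 and *Jak2* of −0.011 to 0.63. The number of members called higher in TRCs ranged from 0, without parental replicate 3, to 3, and was 2 by quasi-likelihood, 1 once the replicate block was added and 3 under the other filters, normalizations and DESeq2's Wald test. Over all genes, 1822 were called by the exact test, 1054 by the quasi-likelihood test without the block and 785 with the replicate block, of which 784 were among the 1822, and 773 to 1932 with a library left out. Whether the replicate numbers mark a shared batch is not known. The block was run as an alternative only, and what the calls lost under it mean was not tested. With the block the log2 fold change of *Lifr* was 1.87, beside 2.16 without it, and that of *Ptpn6* 1.59, beside 1.52. Fits with a library left out have 1 sample in one group, which is assumed to vary like the other group. With at least 1 CPM required in at least 3 libraries, *Osmr* and *Il6ra* were not tested. Of 99 values for the 9 other pathway genes called, 71 kept their call, 28 lost it and 0 changed direction. The causes of these differences were not tested. Counting error is relatively large for the genes near 1 CPM, *Lifr*, *Osmr*, *Il6ra* and *Lif*. For *Lifr*, *Osmr* and *Il6ra*, though, the counting intervals of the 2 TRC libraries did not meet.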

Other observations

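Over the 4 libraries, the genes whose pattern of log2 levels was most like that of *Lifr* were *Phyhipl* and *Slain1*, at distances of 0.29 and 0.52 on the log2 scale among 9778 genes with a mean of at least 5 CPM. *Phyhipl* had 3.84 and 2.92 CPM in parental replicates 1 and 3 and 15.8 and 5.09 CPM in TRC replicates 1 and 3. *Slain1*, whose product acts on microtubules, had 3.55, 4.81, 18.0 and 6.89 CPM in the same order. Both were highest in TRC replicate 1, as *Lifr* was, and no gene lay within 0.25 of *Lifr*.

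The pattern of *Stat3* was common by comparison, with 179 of 9777 genes within 0.25. The nearest were *Zc4h2*, at 12.9 and 12.2 CPM in parental cells and 23.4 and 23.8 CPM in TRCs, and *Ggcx*, the gene of the vitamin K-dependent carboxylase, at 38.1, 37.5, 66.8 and 69.0 CPM. For *Jak2* 126 genes lay within 0.25, the nearest being *Oat*, the ornithine aminotransferase gene, and *Far1*, at distances of 0.046 and 0.071. *Oat* had 324 and 362 CPM in parental cells and 526 and 353 CPM in TRC replicates 1 and 3, with the same excess in TRC replicate 1 alone. These distances describe 4 libraries and carry no test.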
